A study of Mus musculus with 5 samples.

Results

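The genes described here are C1qa, C1qb and C1qc, which encode the chains of complement C1q, and Csf1r, Tyrobp, Aif1, Trem2, Fcer1g, Adgre1 and Laptm5, which are used to identify microglia. They were chosen by name, with earlier results of these data known. Every probe set to which the platform annotation gave 1 gene symbol, and that symbol one of the 10, was taken. This gave 19 probe sets for the 10 genes, out of 45101 probe sets in the table and 18193 genes with a name. The arrays held RNA of 4 mouse medulloblastomas, a tumour of the cerebellum, and of 1 P5 cerebellum, read as postnatal day 5. The series title speaks of tumours from Cxcr6 mutant mice and of a Smoothened inhibitor; the labels give the single arrays no genotype, strain or treatment, and the tumours no age. Whether the 4 tumours came from 4 animals is not given in the sources used here, so the p-values measure the spread between these samples, which may be technical. The cerebellum is 1 array, so tumour and age cannot be told apart in any comparison with it.

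Microglia are the resident macrophages of the brain. They depend on signals through Csf1r, the receptor for the growth factors Csf1 and interleukin-34, and they are the main source of C1q in the brain. C1q is assembled from A, B and C chains and starts the classical complement pathway; it binds immune complexes and dying cells and marks synapses for removal. Trem2, a lipid-sensing receptor, and many Fc receptors have no signalling tail of their own and act through the adaptors Tyrobp and Fcer1g, whose tails carry the tyrosine motif known as ITAM. Every value below is the signal of a whole piece of tissue, so more microglia and more RNA per microglial cell cannot be told apart.

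C1qb, C1qc and C1qa lie next to each other in that order on chromosome 4, with 0 other annotated genes between them in GRCm38.p6. RefSeq promoter windows of that build, from 250 bases before to 50 bases after the start of a transcript, were at hand for 6 of the 10 genes: C1qb, C1qc, Laptm5, Fcer1g, Aif1 and Trem2. They were searched on both strands for AGGAAGT and for the shorter GAGGAA, letters found in sites of PU.1, the lineage factor of macrophages, and of other ETS factors. AGGAAGT was in 2 of the 6 windows, those of C1qb and C1qc, and in 9.35% of all 32851 windows. GAGGAA was in 5 of the 6, all but that of Fcer1g, and in 28.3% of all windows. These matches are descriptions of the letters and show no binding. The stretch from 250 to 23 bases before the start is shown for C1qb and C1qc because these neighbouring genes had signals at least 2-fold above the cerebellum in each tumour and both hold the longer word. Capitals mark the matches, in which ACTTCCT is AGGAAGT and TTCCTC is GAGGAA read on the opposite strand.
C1qb, chr4:136886223-136886450, minus strand: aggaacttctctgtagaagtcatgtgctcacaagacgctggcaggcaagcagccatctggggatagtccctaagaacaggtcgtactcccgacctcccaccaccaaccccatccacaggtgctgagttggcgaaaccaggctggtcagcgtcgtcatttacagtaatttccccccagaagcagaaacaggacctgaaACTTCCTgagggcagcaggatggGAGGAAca
C1qc, chr4:136892937-136893164, minus strand: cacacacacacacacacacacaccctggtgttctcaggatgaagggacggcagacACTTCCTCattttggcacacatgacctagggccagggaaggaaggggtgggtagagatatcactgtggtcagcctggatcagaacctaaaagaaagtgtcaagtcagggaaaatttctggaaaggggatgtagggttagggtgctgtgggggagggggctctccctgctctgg
In C1qb the longer match begins 53 bases before the start and a separate GAGGAA 30 bases before it. In C1qc the longer match begins 195 bases before the start, and the GAGGAA match, which overlaps it, 193 bases before.

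The C1q genes and the adaptor Tyrobp stood above the cerebellum in each tumour, whereas the receptors Csf1r and Adgre1 stood near its level. On the log2(signal + 32) scale the median difference of the 10 genes from the cerebellum was 1.38, against -0.07 over all 14109 genes tested. The median of the 10 was 1.06, 1.43, 1.32 and 1.26 in medulloblastomas 1 to 4. In limma's fit across all genes, C1qa and Tyrobp rose at a Benjamini-Hochberg adjusted p under 0.05, which is 2 of the 10 members against 0.312% of all genes; 0 members were lower, against 0.177%. Over all genes this was 44 higher and 25 lower, and 78 and 20 with arrays scaled to equal medians. At an unadjusted p under 0.05 it was 7 of the 10 higher and 0 lower, against 7.72% and 7.44%. All 4 tumours lay above the cerebellum for 8 of the 10 and below it for 0, against 25.1% and 30.8% of all genes. Csf1r, among the 8, was 1.03 times the cerebellum in its lowest tumour. On each of its other probe sets only 2 tumours lay above. A signal at least 2-fold above the cerebellum in each tumour was found for 5 members, namely C1qa, C1qb, C1qc, Tyrobp and Aif1, against 2.83% of all genes; 0 members were as far below, against 3.15%. The 10 genes were chosen with earlier results of these data known, so these shares give no independent support. The probe sets of Trem2 and Aif1, counted among the 7 and the 8, read 51.7 and 86.5 in the cerebellum. They reached the minimum mean signal of 100 only through the tumours, as did Aif1 among the 5. Trem2 and Aif1 also enter the median of 1.38 and the medians of the single tumours. With 4 arrays against 1, an exact permutation test cannot give a p below 0.2.

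**Figure D1:**
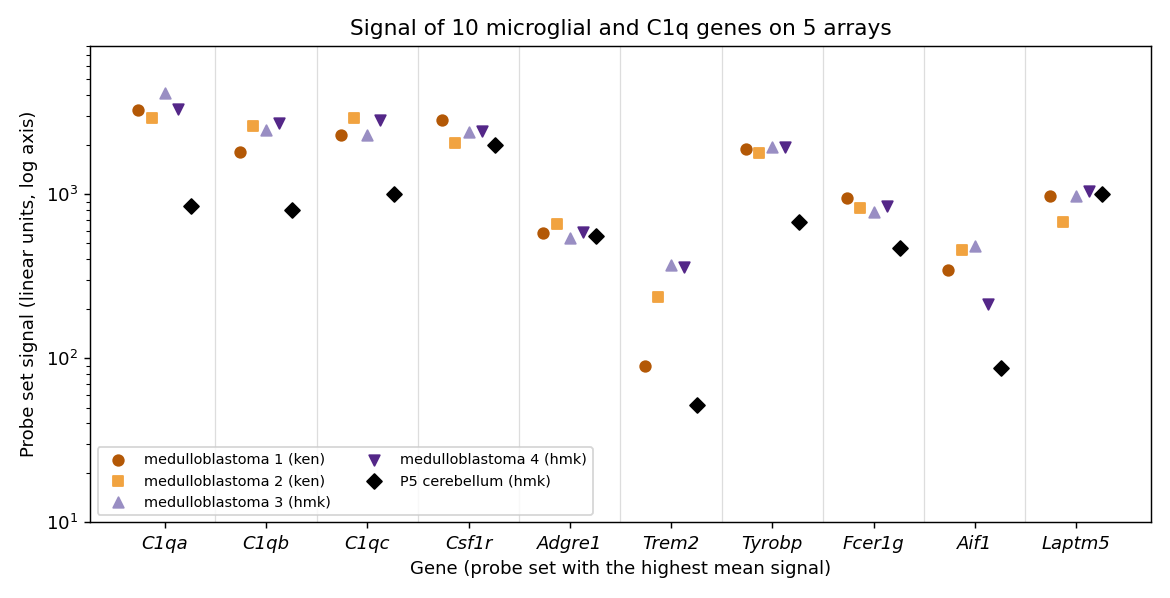
Signal of each gene's brightest probe set (vertical axis, linear signal units on a log scale) for the 10 genes (horizontal axis), with 1 point per array and no averaging. The tumours lie clear of the cerebellum for the C1q genes and Tyrobp, around it for Adgre1 and Laptm5, and medulloblastoma 1 is the lowest tumour for Trem2 at 90.1.

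C1qa, which encodes the A chain, read 3275, 2901, 4157 and 3293 in medulloblastomas 1 to 4 and 849.9 in the cerebellum. The tumours were 3.41 to 4.89 times the cerebellum, and the lowest tumour lay far above it. C1qa rose by 1.95 ± 0.25 on the log2 scale (SE; limma, adjusted p = 0.0262). C1qc, the C chain gene, read 2304, 2911, 2282 and 2838 against 1007, and its difference was 1.32 ± 0.25 (adjusted p = 0.0753).

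C1qb, the B chain gene, was measured by 3 probe sets, and on each of them every tumour exceeded the cerebellum, by different amounts. The brightest read 1817, 2585, 2466 and 2712 against 800.5, a log2 difference of 1.53 ± 0.28 (limma, adjusted p = 0.0699). The second read 1799, 1588, 1837 and 1832 against 896.3, a log2 difference of 0.95, and the third 1302, 1591, 1847 and 1761 against 289.4, a log2 difference of 2.35. Names ending in x_at, as those of the second and the third do, mark probes that can also bind related transcripts. When every probe set was fitted as a row of its own, the third C1qb probe set rose, with a Benjamini-Hochberg adjusted p of 0.0283 over 25843 probe sets (limma), as did C1qa with 0.0390. The adjusted p of Tyrobp was then 0.0671; by the same rule 0.163% of all probe sets were higher and 0.0851% lower, with 0 of the members' lower.

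Averaged over the brightest probe sets of the 3 chains, the log2 difference was 1.41, 1.63, 1.66 and 1.70 in medulloblastomas 1 to 4. The mean over the tumours was 1.60, and medulloblastoma 1 was the lowest. C1qa exceeded C1qb in its difference from the cerebellum by 0.75, 0.08, 0.66 and 0.19 in the 4 tumours, and exceeded C1qc by 0.74, 0.23, 1.09 and 0.45. These are differences of differences between probe sets of different genes and were not tested.

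Tyrobp, the adaptor also known as DAP12, had tumour signals of 1878, 1776, 1944 and 1949 and a cerebellum signal of 675.9. It rose by 1.44 ± 0.23 (limma, adjusted p = 0.0468), and the tumours were 2.63 to 2.88 times the cerebellum. The tumours lay close together: their SD on the log2 scale was 0.06, smaller than that of all but 1.30% of genes tested. Fcer1g, the gamma chain shared by Fc receptors, read 949.4, 825.6, 774.3 and 841.1 against 467.3. All 4 tumours were above the cerebellum, by a log2 difference of 0.81 ± 0.26 that was not called (adjusted p = 0.235, limma).

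Trem2 gave an uneven picture. Its brighter probe set read 90.1 in medulloblastoma 1, 235.6 in medulloblastoma 2, 370.8 in medulloblastoma 3 and 360.6 in medulloblastoma 4, against 51.7 in the cerebellum. The difference was 1.68 ± 0.69 (limma, adjusted p = 0.312), and the spread among tumours was larger than that of 91.3% of genes. Without medulloblastoma 1, the lowest tumour for Trem2, the adjusted p was 0.0361 in a fit that called 3.18% of all genes higher, and without medulloblastomas 2, 3 and 4 in turn it was 0.482, 0.464 and 0.469 (limma). Its second probe set read 216.6, 151.3, 83.8 and 332.5 against 158.6, with 2 tumours above the cerebellum and 2 below, a log2 difference of 0.14. The brighter probe set ends in s_at, a mark of probes shared by several transcripts, and the second does not. It was brighter by the mean over all arrays, whereas in the cerebellum the second was, at 158.6 against 51.7.

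Csf1r was measured by 3 probe sets, none of which was called. The brightest read 2826, 2040, 2406 and 2413 against 1989.9, and medulloblastoma 2 was close to the cerebellum. The difference was 0.27 ± 0.25 with a 95% interval from -0.30 to 0.84 (limma, adjusted p = 0.622). The other probe sets read 803.0, 912.9, 1140.4 and 1058 against 913.4, and 678.6, 1111, 635.6 and 1054 against 707.8; each had 2 tumours above and 2 below the cerebellum. Adgre1, the adhesion receptor F4/80 of macrophages, read 579.7, 658.5, 541.3 and 591.0 against 555.1. The groups overlapped, and the difference was 0.09 ± 0.28 with a 95% interval from -0.55 to 0.72 (adjusted p = 0.903, limma). Within each tumour the mean difference of the 3 C1q chains exceeded that of Csf1r, by 0.91, 1.59, 1.39 and 1.43 on the log2 scale. That contrast was picked after the values were seen and has no test.

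**Figure D2:**
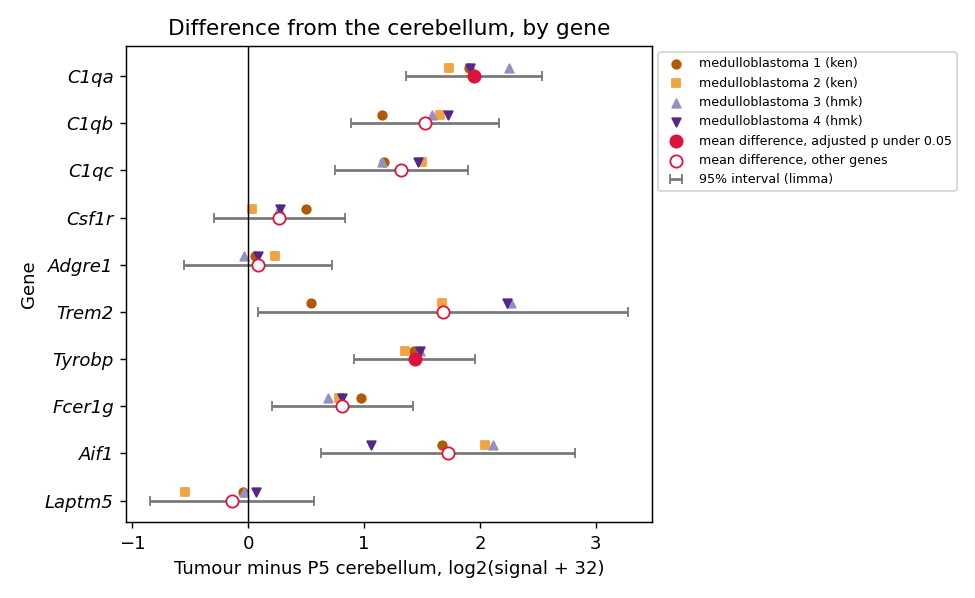
Log2 difference of each tumour from the cerebellum (horizontal axis, log2(signal + 32)) for the 10 genes (vertical axis); small symbols are single tumours, circles their mean and bars limma's 95% interval. The filled circles are C1qa and Tyrobp, the members with an adjusted p under 0.05; the intervals of Csf1r, Adgre1 and Laptm5 cross 0.

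Aif1, which encodes the actin-binding protein Iba1, read 346.7, 456.0, 480.1 and 215.3 against 86.5. Medulloblastoma 4 was the lowest tumour and still 2.49 times the cerebellum. The difference was 1.72 ± 0.47 (limma, adjusted p = 0.169), of a size between those of C1qb and C1qa but with a larger spread among tumours.

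Laptm5, a lysosomal membrane protein of blood cells, had 5 probe sets that went different ways. The brightest read 969.9, 676.1, 971.7 and 1050.5 against 998.8, with 1 tumour above the cerebellum and a difference of -0.14 ± 0.31 (limma, adjusted p = 0.856; 95% interval -0.84 to 0.57). The second read 508.2, 470.0, 1052.5 and 858.4 against 166.8, with all 4 tumours above and a log2 difference of 1.85, which was not called over all probe sets (adjusted p = 0.158, limma). Of the remaining probe sets, 1 read 342.2, 395.8, 671.6 and 421.7 against 499.5 and another 168.7, 136.3, 14.0 and 334.9 against 237.6, each with 1 tumour above. The dimmest read 129.4, 168.4, 40.8 and 103.8 against 55.3, with 3 tumours above. Its mean signal of 99.5 was under the minimum of 100, so it was not tested. The level of Laptm5 in tumours relative to cerebellum is therefore uncertain.

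**Figure D3:**
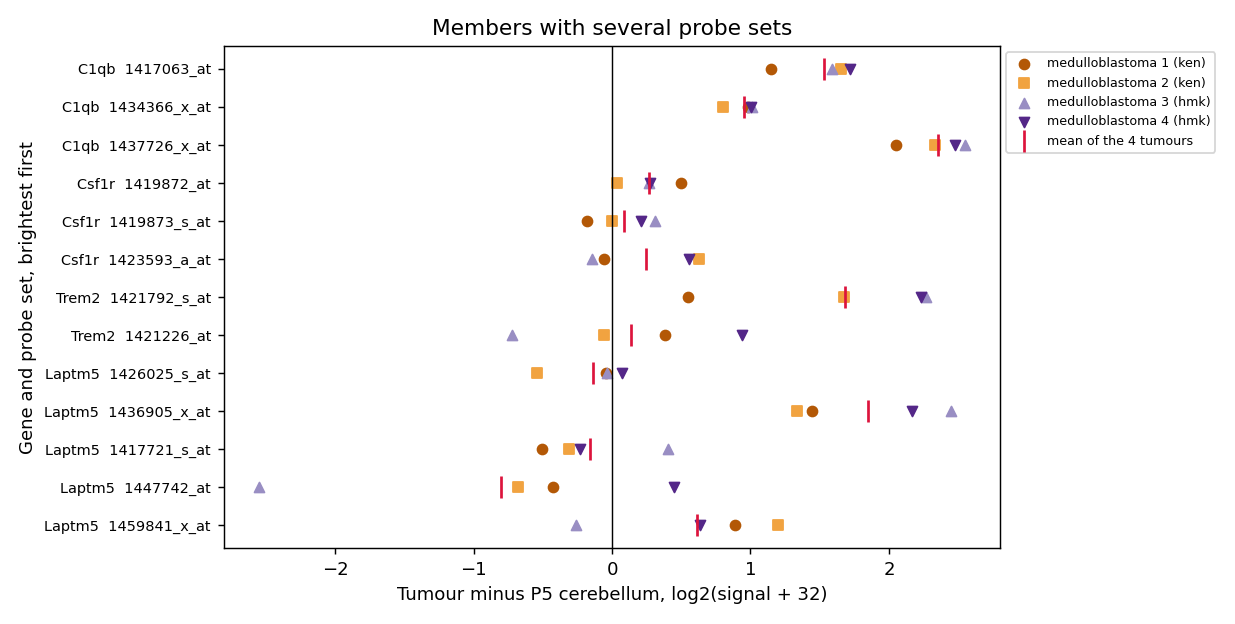
Log2 difference of each tumour from the cerebellum (horizontal axis, log2(signal + 32)) for every probe set of the 4 genes with several (vertical axis, brightest first within a gene); red bars are the mean of the 4 tumours. The C1qb probe sets lie to the right of 0 throughout, the Csf1r probe sets lie around 0, and those of Trem2 and Laptm5 disagree.

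The title prefix of the arrays, ken for medulloblastomas 1 and 2 and hmk for the other 3 arrays, is a possible batch. Within the hmk arrays the log2 differences were 2.08 for C1qa, 1.65 for C1qb, 1.31 for C1qc, 1.48 for Tyrobp and 2.25 for Trem2, all called, against 5.93% of all genes; the spread then comes from 1 pair of tumours. The ken tumours set against the same cerebellum gave 1.82 for C1qa and 1.39 for Tyrobp, neither called (adjusted p = 0.0843 and 0.156, limma; 0.149% of all genes higher), with 6 members higher and 0 lower at an unadjusted p under 0.05, against 5.15% and 6.20% of all genes. Calls also depended on single tumours: C1qa, C1qb, C1qc, Tyrobp and Trem2 were called without medulloblastoma 1 (3.18% of all genes higher). Without medulloblastoma 2, 3 or 4 in turn limma called 0 members (0.0142%, 0.0709% and 0% of all genes higher), and each time 6 members were higher and 0 lower at an unadjusted p under 0.05. At that unadjusted p, 5.36%, 5.83% and 5.71% of all genes were higher and 5.62%, 6.36% and 6.35% lower. Medulloblastoma 1 had the highest actin 3' to 5' ratio, a measure that climbs with RNA breakdown, at 1.45 against 1.21 to 1.35 elsewhere, and its part in these results was not tested. Over these same fits the difference of C1qa stayed between 1.82 and 2.08 and that of Tyrobp between 1.39 and 1.48.

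Genes that mark microglia in their resting state showed no common direction. For this list and those below, the shares over all genes were 7.72% higher and 7.44% lower at an unadjusted p under 0.05 (limma). For all 4 tumours above or below the cerebellum they were 25.1% and 30.8%. Of 13 listed, 12 had a named probe set and 10 were tested, with 0 called by limma in either direction, 2 higher and 0 lower at an unadjusted p under 0.05, and a median difference of 0.03; 4 lay above the cerebellum in all 4 tumours and 2 below. Cx3cr1, the fractalkine receptor, read 436.6, 316.6, 478.6 and 534.3 against 308.1, and P2ry12, a purine receptor, read 153.1, 268.6, 469.3 and 350.0 against 281.6. Fcrls, an Fc receptor-like gene, read 694.3, 806.1, 679.1 and 813.9 against 731.3, a difference of 0.03 ± 0.27. Tmem119 read 102.4, 510.5, 261.4 and 95.7 against 394.8, a difference of -0.90 ± 0.78. Slc2a5 differed by -0.48 ± 0.50, with 0 tumours above the cerebellum. Siglech, which was not tested, read 125.3, 97.6, 18.8 and 23.9 against 216.1. The furthest from the cerebellum were Selplg, a selectin ligand, at 1.99 ± 0.46, Crybb1 at 1.66 ± 0.78, Olfml3 at -1.32 ± 0.95 and the transcription factor gene Sall1 at 1.04 ± 0.40. A dimmer probe set of Sall1 read 195.8, 82.9, 206.3 and 52.1 against 102.8, a log2 difference of 0.17, so Sall1 is uncertain. The summed signal of the 12 ranged from 3157 to 3666 over the tumours and was 3404 for the cerebellum; no marker was at 0. Cx3cr1, P2ry12, Fcrls, Tmem119, Slc2a5 and Siglech were named here after their values were seen. Cx3cr1 had 2 probe sets, of which only the brighter is given here.

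Pan-leukocyte genes had a higher median. All 10 were tested, limma called 0, 4 were higher and 0 lower at an unadjusted p under 0.05, the median difference was 0.73, and 8 were above the cerebellum in all 4 tumours. Over all genes 7.72% were higher and 7.44% lower at that p, and 25.1% lay above in all 4 tumours. Cd52 (2.19 ± 0.74), Cd53 (1.92 ± 0.46), the lysosomal Cd68 (1.37 ± 0.33) and the oxidase subunit gene Cyba (1.19 ± 0.31) were the furthest. The summed signal of the 10 was 5386 to 6868 in the tumours against 3640. Ptprc, which encodes CD45 and was named after its values were seen, read 347.4, 290.4, 242.4 and 351.9 against 151.8. Of the 2 probe sets of Ptprc and the 3 of Coro1a, only the brightest is given here.

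The rest of the complement system showed no common direction. Over all genes 7.72% were higher and 7.44% lower at an unadjusted p under 0.05 (limma). In all 4 tumours, 25.1% of all genes lay above and 30.8% below the cerebellum. Of 21 genes for complement components, receptors and regulators, 17 had a named probe set and 15 were tested; 0 were called by limma, 1 was higher and 1 lower at an unadjusted p under 0.05, the median was 0.19, and 7 were above and 3 below the cerebellum in all tumours. The furthest were C1s1, a protease that binds C1q (1.59 ± 0.89), Cd93, a receptor found on vessels (-1.48 ± 0.57), Itgam, the alpha chain of complement receptor CR3 (1.46 ± 0.73), and the alternative pathway factor Cfb (1.24 ± 0.67). The 4 other probe sets of Cd93 differed by -1.56, 0.00, 0.18 and 0.85. C1s1 read 99.9, 35.6, 273.4 and 149.4 against 17.6, and its partner protease gene C1ra read 110.0, 27.8, 277.8 and 75.6 against 30.7. Medulloblastoma 3 was the highest and medulloblastoma 2 the lowest for both proteases, as for C1qa; for C1qb and C1qc medulloblastoma 2 was not the lowest nor medulloblastoma 3 the highest. C1ra was named after its values were seen. In the cerebellum Itgam read 22.9 and Cfb 41.7. Like C1s1 and C1ra, they reached the minimum mean signal of 100 only through the tumours.

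Ligands and lineage factors around Csf1r, 10 of 11 measured and all 10 tested, had a median of -0.29 with 0 called by limma. At an unadjusted p under 0.05, 0 were higher and 1 lower, against 7.72% and 7.44% of all genes. The ligand gene Csf1 read 383.6, 730.0, 547.6 and 561.4 against 696.8, and Il34, the other ligand gene, read 122.6, 63.6, 97.9 and 74.2 against 151.2. Csf1 had 4 probe sets, of which only the brightest is given here. Spi1, which encodes PU.1, read 169.9, 168.3, 287.2 and 164.5 against 231.5. These 3 were named after their values were seen; by size the first were Csf2ra (-1.10 ± 0.33), Irf8 (0.83 ± 0.41), Maf (-0.75 ± 0.33) and Csf2rb (0.63 ± 0.43). Other, dimmer probe sets of Maf differed by -0.56 to 1.41, 2 of the 5 being positive, and that of Csf2ra by 0.20, so both are uncertain. The list of ITAM receptors and signalling held Fc receptors and other genes, not all of which act with the adaptors Tyrobp and Fcer1g. It gave a median of -0.25 over 17 tested of 20 listed, with 0 called by limma. At an unadjusted p under 0.05, 1 was higher and 1 lower. Of the genes tested, 4 lay above and 8 below the cerebellum in every tumour, against 25.1% and 30.8% of all genes. Among them Clec7a, the receptor for fungal glucans, differed by 1.42 ± 0.34 (492.2, 614.7, 827.9 and 576.2 against 210.0), and Hcst, an adaptor akin to Tyrobp, by -1.53 ± 0.66. Fcgr1 differed by -1.04 ± 0.92 and Fcgr2b by -0.80 ± 0.42; of the 4 other probe sets of Fcgr2b, 1 differed by -1.29 and the others by 0.03, 0.83 and 2.72, so Fcgr2b is uncertain. The second probe set of Fcgr1 differed by -0.03.

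**Figure D4:**
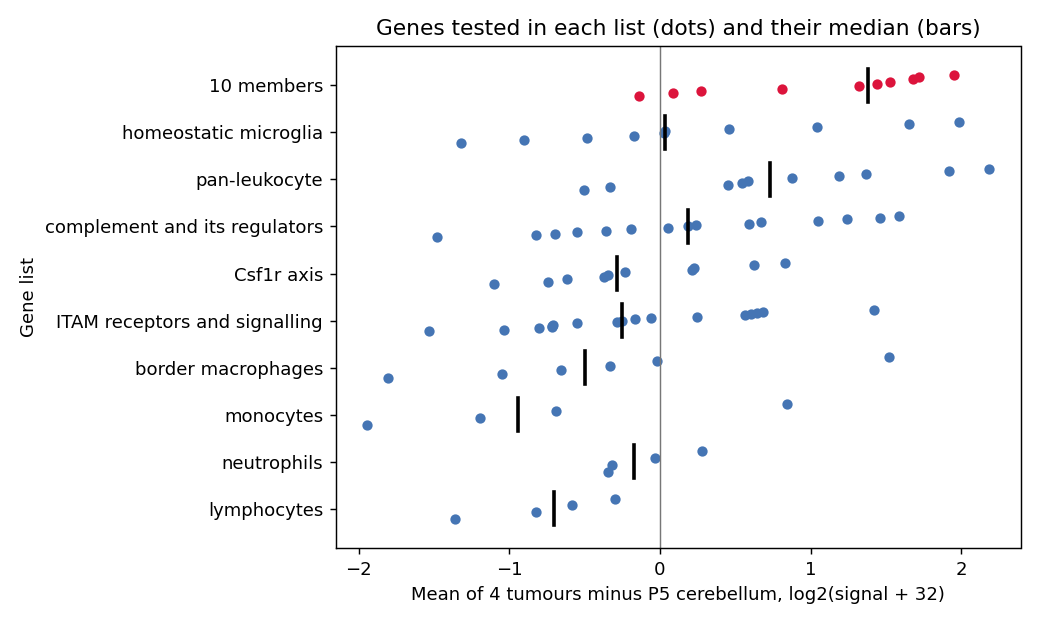
Mean log2 difference of the 4 tumours from the cerebellum (horizontal axis, log2(signal + 32)) for each tested gene of 10 lists (vertical axis); dots are genes and black bars medians. The median was 1.38 for the 10 members, 0.73 for pan-leukocyte genes and 0.03 for resting microglia genes. Trem2 and Aif1, among the 10, passed the minimum mean signal only through the tumours.

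Several members are also made by other white blood cells, so markers of those were read on the same arrays. Limma called 0 of them. At an unadjusted p under 0.05, 1 border macrophage gene was higher and 2 lower. Lower too were 2 monocyte genes and 1 lymphocyte gene, while 0 neutrophil or mast cell genes differed. Over all genes 7.72% were higher and 7.44% lower by that rule. For macrophages of the brain's borders, 6 of 9 genes were tested, with a median of -0.50 and a summed signal of 1726 to 2916 against 2969; Pf4 differed by -1.80 ± 0.42 and F13a1 by -1.05 ± 0.45. Ms4a7 of the same list went the other way, with 595.8, 784.0, 1137 and 899.0 against 269.0 (1.52 ± 0.36), although its dim second probe set differed by -0.91. For monocytes 4 of 6 were tested (median -0.94, summed signal 1674 to 2986 against 5882), and most of that sum came from Vcan and Fn1, which other cells also make. Vcan differed by -1.95 ± 0.82, Fn1 by -1.19 ± 0.28 and Plac8 by -0.69 ± 0.78. Ccr2 went the other way, with 84.5, 108.7, 148.0 and 152.1 against 53.1 (0.84 ± 0.61). Its other probe sets differed by -1.30, 1.29 and -0.27, so Ccr2 is uncertain. For neutrophils 4 of 9 were tested (median -0.18; 925 to 1125 against 768), and for lymphocytes 4 of 13 (median -0.70; 986 to 1220 against 1440). Of 5 mast cell genes 1 was tested, Cma1 (1.15 ± 0.56), and the summed signal was 233 to 414 against 458. Cma1 read 56.7 in the cerebellum and, like Ccr2, reached the minimum mean signal of 100 only through the tumours. No marker of these lists was at 0, and their part in the members' differences was not tested. The 8 genes that check the labelled tissue are of cerebellum and granule neuron lineage, apart from Mki67, which marks dividing cells of any kind. All had a mean signal of at least 100, and 1 of them, Atoh1, was called higher by limma, against 0.312% of all genes. At an unadjusted p under 0.05, 3 were higher and 2 lower, against 7.72% and 7.44% of all genes. The furthest were Atoh1 (2.81 ± 0.40), Pax6 (-1.02 ± 0.34), Barhl1 (0.97 ± 0.24) and Mki67 (0.85 ± 0.21). The signals had a sum of 49139 to 50761 over the tumours and 50261 for the cerebellum. Zic1 was the largest part of that sum on every array, so near-equal sums do not show that the single genes were level.

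Among genes outside the group, the 5 whose differences in the 4 tumours came nearest to the members' median were Cog7, Tcirg1, Ntrk3, Flnc and Map3k11, at a root mean square distance of 0.06 to 0.10 on the log2 scale. Cog7, a subunit of a Golgi tethering complex, read 4066, 5764, 5351 and 4863 against 2072. Tcirg1, a proton pump subunit, read 558.5, 648.0, 683.1 and 635.9 against 235.2, and Ntrk3, the receptor of neurotrophin-3, read 2149, 2785, 2425 and 2701 against 988.0. With 5 arrays many of 14109 genes can come this near.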

How the data were processed

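Affymetrix arrays had been hybridised with RNA of 4 mouse medulloblastomas and 1 P5 cerebellum. The authors deposited linear intensities for each probe set; per the submitters' processing notes MAS5 made those of medulloblastomas 1, 2 and 4 and the cerebellum, and for medulloblastoma 3 the tool is not given in the sources used here. In the deposited table each array's mean without 2% at each end was 500.002. Tumours were numbered in record order, which is only a name. Detection calls were not used here.

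Each array was rescaled to 500 by that trimmed mean and log2(signal + 32) taken, a scale that understates differences of low signals. Of 45101 probe sets, 34945 had 1 symbol, 932 had several and 9160 had none here; 64 were controls. By Entrez ID 34741 matched RefSeq (GRCm38.p6, for names and promoters), and 0 symbols changed. Each gene was represented by its brightest probe set, and 14109 with a mean of at least 100 were tested, all 10 members among them. Both choices used the mean over the 5 arrays, 4 of them tumours. A probe set low in the cerebellum could thus be chosen and pass through the tumours. Of the members' 19 probe sets 18 passed that filter. The test was limma's, version 3.58.1 under R 4.3.3 (lmFit, eBayes with a variance trend, two-sided, Benjamini-Hochberg over all genes, threshold 0.05); ± is the standard error of the fit, whose spread comes from the tumours with 3 residual degrees of freedom, the cerebellum being assumed to vary like them. Their number limits the precision. The fit was also run on simulated data in which the cerebellum varied like the tumours, so that assumption was not checked. Intervals are 95%.

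The members and the 11 gene lists were chosen with earlier results of these data known. Named genes were all members, up to 4 tested genes of a list with the largest differences, and the 5 genes nearest the members' profile. Others are marked as named after their values were seen. Of the border macrophage list not all of those 4 are named, and of the neutrophil and lymphocyte lists none is. Alternatives were other scalings, treatments of low signals, filters, probe set choices, the variance model, thresholds, a fit of the hmk arrays and fits without each tumour; a fit of the ken tumours and the cerebellum was chosen after seeing the data.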

Additional observations from a re-analysis of the deposited data

How the results depend on the processing

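The 2 calls among the members depended on the setting. Beside 0.312% of all genes called higher in the reported fit, they became 4 with equal medians (0.553%) and at an adjusted p under 0.1 (0.695%), and 5 with the hmk arrays alone (5.93%) and by a signal at least 2-fold above the cerebellum in each tumour (2.83%). They became 1 with no filter (0.077%) or with the mean of all probe sets (0.14%), where Tyrobp was lost. They became 0 with eBayes without a trend, where limma called 0 of all 14109 genes in either direction, and with the ken tumours and the cerebellum (0.149%); leaving out single tumours gave 0 to 5 (0% to 3.18%). Where limma called 0 members, 6 or 7 were higher at an unadjusted p under 0.05 and 0 lower, against 5.15% to 6.44% of all genes higher and 5.62% to 7.79% lower. The median difference of 1.38 became 1.57 with equal medians, which moves the median of all genes from -0.07 to 0.12; 1.12 with a larger added constant and also with the mean of all probe sets; 0.81 without probe sets ending in x_at or s_at, where Aif1 had none left and Trem2 differed by 0.14; 0.88 with every probe set as a row; and 1.22 with the ken tumours. Leaving out single tumours gave 1.35 to 1.41. The difference of Laptm5 changed sign to 0.052 with equal medians, 0.27 with the mean of all probe sets and 0.016 with the hmk arrays; the other members kept their direction in all these settings. Quantile normalization, constants and floors, and a minimum of 200 kept the count at 2. Other causes were not tested. Signals near the constant of 32, as those of Trem2 and Aif1 in the cerebellum, limit the size of their differences. The same holds for Selplg, Crybb1, Cd52, C1s1, C1ra, Itgam and Cfb. No paired analysis was possible because the cerebellum is a single array and the labels give no replicate numbers.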
